A study of Mus musculus with 6 samples.

Results

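Metallothioneins and the genes that carry, store and export iron were followed in hippocampal astrocytes after the ablation of microglia. The 10 genes were chosen by name: the metallothioneins *Mt1*, *Mt2* and *Mt3*, the ferritin chains *Fth1* and *Ftl1*, the uptake genes *Tfrc*, *Trf* and *Slc39a14*, and the export genes *Slc40a1* and *Cp*. That choice was made with earlier results of these data known. All 10 were among the 24421 genes listed and among the 15137 genes tested, which had a mean of at least 0.5 CPM (read counts scaled to library size) over the 6 libraries. All mice were Siglechdtr/dtr, C57BL/6 animals with the diphtheria toxin receptor placed in both copies of *Siglech*, a gene of microglia, so that Siglec-H was reduced in both groups. One group received PBS and the other 50 μg/kg diphtheria toxin (DT) intraperitoneally, and astrocytes were collected 2 days later. Per the study's methods, CD11b+ cells were depleted first and ACSA-2+ astrocytes were then taken by magnetic sorting from the pooled hippocampi of 2 male mice per library, in 3 independent experiments. There were 3 PBS and 3 DT libraries. The age of the mice was not given in the labels. The study's methods describe the injected mice as adult and give a range in weeks for adult mice.

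Metallothioneins are small, cysteine-rich proteins that bind zinc and copper. MTF1, the zinc-sensing transcription factor, drives *Mt1* and *Mt2* through metal response elements, while *Mt3* is the brain form of the family. Iron enters cells bound to transferrin (*Trf*) through the transferrin receptor (*Tfrc*) or unbound through carriers such as ZIP14 (*Slc39a14*), is stored in ferritin (*Fth1*, *Ftl1*), and leaves through ferroportin (*Slc40a1*) with the help of the ferroxidase ceruloplasmin (*Cp*). When iron is scarce, iron regulatory proteins bind hairpins called iron responsive elements, which blocks translation of ferritin and ferroportin mRNA and protects the *Tfrc* mRNA from decay.

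The promoters of the metallothioneins are shown because MTF1 acts on *Mt1* and *Mt2* through metal response elements, whose core was searched for. The 3 genes lie side by side on the plus strand of chromosome 8 of mm10, from 94152607 to 94180327, in the order *Mt3*, *Mt2* and *Mt1*. RefSeq windows for GRCm38.p6, 250 bases before to 50 bases after a gene's start, were at hand for 7 of the 10 genes, in 10 windows. *Slc40a1*, *Slc39a14* and *Trf* had no entry. Capitals mark the core of the metal response element, searched on both strands as TGCACNC or TGCGCNC.
*Mt1*, chr8:94178839-94179138, plus strand: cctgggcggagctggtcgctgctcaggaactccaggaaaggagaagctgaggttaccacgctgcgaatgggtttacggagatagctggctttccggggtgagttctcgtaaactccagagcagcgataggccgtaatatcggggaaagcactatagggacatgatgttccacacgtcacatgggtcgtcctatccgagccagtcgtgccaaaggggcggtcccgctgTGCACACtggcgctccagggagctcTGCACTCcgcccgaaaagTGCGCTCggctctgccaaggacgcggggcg
*Mt2*, chr8:94172368-94172667, plus strand: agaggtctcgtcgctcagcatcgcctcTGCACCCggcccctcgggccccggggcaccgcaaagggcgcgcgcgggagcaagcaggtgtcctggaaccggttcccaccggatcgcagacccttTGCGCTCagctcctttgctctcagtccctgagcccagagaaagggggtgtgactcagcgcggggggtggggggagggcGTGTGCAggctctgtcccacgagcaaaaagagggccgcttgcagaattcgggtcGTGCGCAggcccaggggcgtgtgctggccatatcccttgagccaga
*Mt3*, chr8:94152357-94152656, plus strand: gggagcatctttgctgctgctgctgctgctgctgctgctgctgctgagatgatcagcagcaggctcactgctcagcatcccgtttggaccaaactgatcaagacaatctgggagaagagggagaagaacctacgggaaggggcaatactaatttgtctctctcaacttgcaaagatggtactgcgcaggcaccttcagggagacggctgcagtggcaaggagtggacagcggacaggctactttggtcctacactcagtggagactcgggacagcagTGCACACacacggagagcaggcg
The core was matched at 4 places in the *Mt2* window, at 3 in that of *Mt1* and at 1 in that of *Mt3*. Of the other 7 windows, 1 of *Tfrc* held 2 overlapping matches and the rest held none. Of 32851 promoter windows, 25.7% held at least 1 match and 0.517% held 4 or more. The STAT-type site TTCNNNGAA, present in 8.3% of all windows, was not matched in any of the 10 windows. The antioxidant response element core TGACNNNGC, present in 12.4%, was matched once, in *Mt2*. No window of these genes held the glucocorticoid response element, which was found in 0.00913% of all windows. All of these were searched on both strands, and a match is a run of letters and not a shown binding site.

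The iron responsive elements are shown because they mark the genes whose mRNA the iron regulatory proteins bind. GENCODE M21 transcripts on mm10 were searched for a bulged C, an upper stem of 5 paired bases and the loop CAGTGN, which is in capitals.
*Fth1*, 5′ UTR, chr19:9982733-9982759, plus strand: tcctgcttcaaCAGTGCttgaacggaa
*Ftl1*, 5′ UTR, chr7:45459780-45459806, minus strand: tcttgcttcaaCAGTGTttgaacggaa
*Slc40a1*, 5′ UTR, chr1:45925466-45925492, minus strand: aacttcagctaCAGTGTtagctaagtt
*Tfrc*, 3′ UTR, chr16:32631220-32631246, plus strand: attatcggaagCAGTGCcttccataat
*Tfrc*, 3′ UTR, chr16:32631599-32631625, plus strand: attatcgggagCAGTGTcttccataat
*Tfrc*, 3′ UTR, chr16:32631664-32631690, plus strand: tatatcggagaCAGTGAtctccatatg
*Tfrc*, 3′ UTR, chr16:32631711-32631737, plus strand: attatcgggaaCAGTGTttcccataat
The other 6 genes had no match, whereas 294 of 21901 genes with a protein-coding transcript (1.34%) had 1. The matches of ferritin and ferroportin lay before the coding sequence, and the 4 of *Tfrc* lay after it. Elements with a loop other than CAGTGN were not searched for, so these counts can miss some.

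Levels are compared between genes in TPM, the share of transcripts after scaling for transcript length. *Mt1* was the most abundant of the 10 in every library, and after PBS its mean of 4148 ± 286 TPM (SD, n = 3) was above that of 99.9% of the genes tested. *Mt3* followed at 1156 ± 162 TPM, *Fth1* at 719 ± 67.9 TPM, *Mt2* at 355 ± 38.5 TPM and *Ftl1* at 325 ± 13.9 TPM. *Tfrc* stood at 170 ± 7.54 TPM, *Cp* at 55.8 ± 7.48 TPM and *Trf* at 46.0 ± 3.55 TPM. The least abundant were *Slc40a1* at 21.5 ± 3.40 TPM and *Slc39a14* at 12.4 ± 6.09 TPM. In this order, the PBS libraries of *Mt2* and *Ftl1*, of *Cp* and *Trf*, and of *Slc40a1* and *Slc39a14* overlapped, and all other neighbours were separate. After DT, *Mt2* was above *Ftl1* in all 3 libraries and *Slc39a14* was above *Slc40a1* in all 3, while *Cp* and *Trf* still overlapped.

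**Figure D1:**
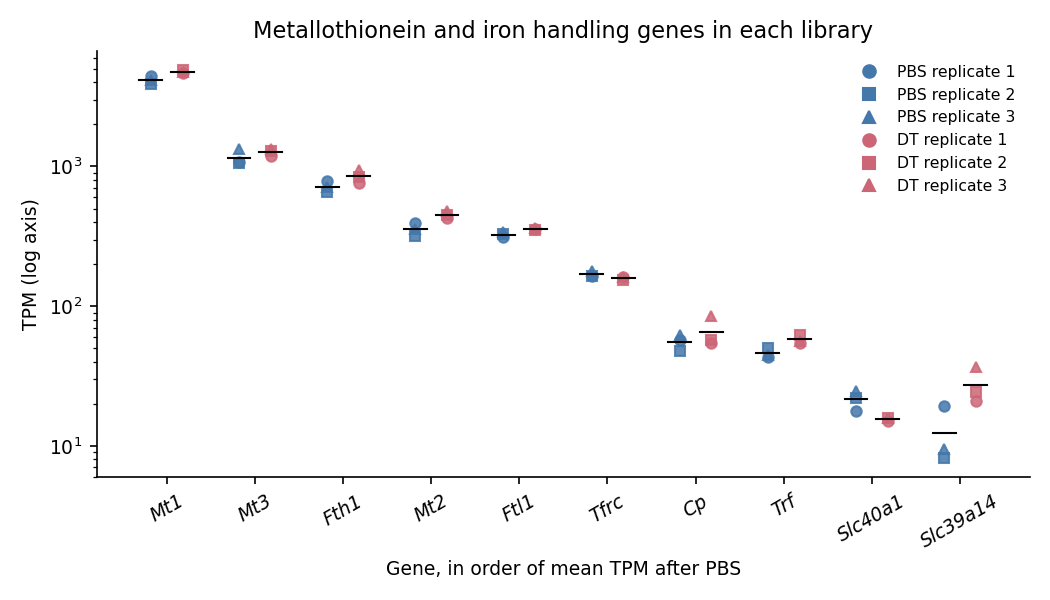
TPM of each gene (log axis) in the 3 PBS and 3 DT libraries, with genes in order of mean TPM after PBS, symbols for replicates and black bars for group means. *Mt1* lies highest, and *Slc39a14* passes *Slc40a1* after DT.

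None of the 10 genes passed the threshold of an adjusted p under 0.05 in limma, in either direction, when 108 of all genes tested did (0.713%; 0.555% higher and 0.159% lower after DT). At an unadjusted p under 0.05 there were 6, *Mt1*, *Mt2*, *Fth1*, *Slc39a14* and *Trf* with a positive and *Slc40a1* with a negative log2 fold change, against 10.4% of all genes tested. In CPM the DT and PBS libraries did not overlap for 6 genes, 5 with higher values after DT (*Mt1*, *Mt2*, *Ftl1*, *Slc39a14* and *Trf*; background 8.75%) and 1 with lower values (*Slc40a1*; background 7.57%). The log2 fold change was positive for 8 genes and negative for *Tfrc* and *Slc40a1*. The median over the 10 genes was 0.20, beside -0.0052 over all genes tested. Because the 10 genes were chosen with earlier results of these data known, these counts describe them and do not test them as a set. edgeR's quasi-likelihood test on recovered reads called 0 of the 10 (0.733% of all genes), and DESeq2 on the same reads called 1, *Slc40a1* (2.15% of all genes). These were bulk libraries, in which fewer cells of a type and less RNA per cell cannot be told apart.

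**Figure D2:**
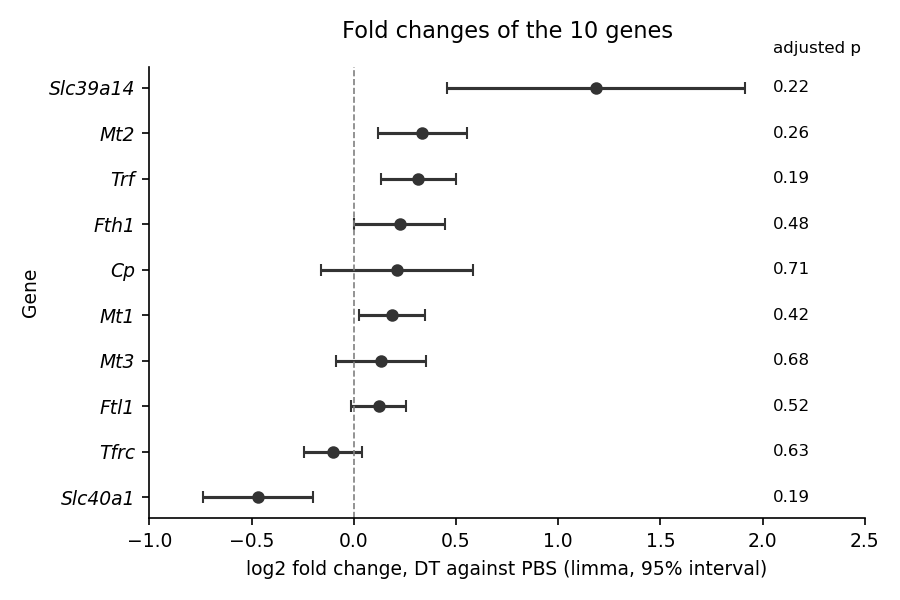
Log2 fold change, DT against PBS, from limma on log2(CPM + 0.1), with its 95% interval and the adjusted p at the right. Intervals exclude 0 for *Mt1*, *Mt2*, *Fth1*, *Slc39a14*, *Trf* and *Slc40a1*, and no adjusted p is under 0.05.

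Among the metallothioneins, *Mt2* had the largest difference. Its level was 394, 317 and 355 TPM in the PBS libraries and 426, 452 and 476 TPM in the DT libraries. Every DT library was above every PBS library, and the lowest DT library stood close to the highest PBS library. The log2 fold change was 0.34 (SE 0.09, 95% interval 0.12 to 0.55, adjusted p = 0.257 from limma), a 1.26-fold ratio. *Mt1* read 4437, 3866 and 4142 TPM after PBS and 4641, 4898 and 4742 TPM after DT. Again the groups did not overlap, and the log2 fold change was 0.19 (SE 0.07, 95% interval 0.03 to 0.35, adjusted p = 0.417 from limma). *Mt3* read 1074, 1052 and 1342 TPM after PBS and 1182, 1297 and 1341 TPM after DT. Its groups overlapped, since PBS replicate 3 was as high as the highest DT library, and the log2 fold change was 0.13 (SE 0.10, 95% interval -0.09 to 0.35, adjusted p = 0.678 from limma). *Mt1* and *Mt2* are close copies, and a part of their reads may be shared, which was not tested.

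The 3 metallothioneins together made up 5660 ± 369 TPM after PBS and 6485 ± 209 TPM after DT, which is 0.566% and 0.649% of all transcripts. *Mt1* gave 73.3% of that sum after PBS and 73.4% after DT. The proportion of *Mt1* to *Mt2* in TPM was 11.3, 12.2 and 11.7 in the PBS libraries and 10.9, 10.8 and 9.96 in the DT libraries. The groups did not overlap, and the log2 ratio differed by -0.15 (exact permutation test, two-sided, p = 0.1, 0.25 adjusted over 5 ratios). With 3 libraries against 3, 0.1 is the smallest p this test can give. The log2 ratios of *Mt1* to *Mt3* and of *Mt2* to *Mt3* differed by 0.05 and 0.20, with overlapping groups (exact permutation test, adjusted p = 0.8 and 0.625).

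Over the 6 libraries, the log2 CPM of *Mt1* and *Mt2* moved together (Pearson r = 0.969), while *Mt1* and *Mt3* did so less (r = 0.473). This was not particular to the metallothioneins, since *Mt2* had r = 0.973 with *Slc39a14*, 0.936 with *Fth1* and -0.868 with *Slc40a1*. With the other iron genes, r of *Mt2* ran from -0.44 (*Tfrc*) to 0.698 (*Cp*). Among 10060 genes with a mean of at least 10 CPM, the patterns most like that of *Mt2* were those of *S1pr3*, a sphingosine 1-phosphate receptor (r = 0.998), *Fxyd1*, a regulator of the sodium pump (r = 0.995), and *Ndp*, the Wnt pathway ligand norrin (r = 0.987). For *Mt1* they were *Phyhd1*, *Lect1* and *Psmc4* (r = 0.987, 0.987 and 0.985), and for *Mt3* they were *Mcm6*, *Gpkow* and *Rps19* (r = 0.992, 0.992 and 0.988). All of these values share the same 6 libraries and the same scaling and are given as a description.

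The ferritin chains store iron, and the heavy chain *Fth1* also oxidizes it. *Fth1* read 791, 656 and 710 TPM after PBS and 762, 835 and 949 TPM after DT. DT replicate 1 lay below PBS replicate 1, and the log2 fold change was 0.22 (SE 0.10, 95% interval 0.00 to 0.45, adjusted p = 0.478 from limma). The light chain *Ftl1* read 311, 326 and 338 TPM after PBS and 359, 351 and 360 TPM after DT. The groups did not overlap, but the difference was small, with a log2 fold change of 0.12 (SE 0.06, 95% interval -0.01 to 0.26, adjusted p = 0.522 from limma). The ratio of *Fth1* to *Ftl1* averaged 2.22 after PBS and 2.38 after DT (log2 difference 0.10, exact permutation test, adjusted p = 0.625). Ferritin genes have processed copies in the genome that can share their reads, which was not tested, and mRNA levels do not show the translation that the iron responsive elements control.

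Of the uptake genes, *Slc39a14*, which encodes ZIP14, a carrier of zinc, manganese and unbound iron, had the largest difference of the 10. It read 19.4, 8.23 and 9.52 TPM after PBS and 20.98, 24.4 and 36.4 TPM after DT. PBS replicate 1 stood at about the level of DT replicate 1, well above the other two PBS libraries, and the groups did not overlap. The log2 fold change was 1.19 (SE 0.32, 95% interval 0.46 to 1.91, adjusted p = 0.225 from limma), a 2.27-fold ratio with an interval from 1.37 to 3.77. Without PBS replicate 1 it was 1.57 with an adjusted p of 0.0307 (limma), so 1 library decided the call, and over all 16 alternative settings the adjusted p ran from 0.0307 to 0.490. *Trf*, which encodes transferrin, read 43.4, 50.0 and 44.5 TPM after PBS and 54.4, 62.7 and 56.4 TPM after DT. All DT libraries were above all PBS libraries, and the log2 fold change was 0.32 (SE 0.08, 95% interval 0.13 to 0.50, adjusted p = 0.193 from limma). Transferrin is also made by oligodendrocytes and choroid plexus. The summed level of 12 oligodendrocyte markers was 529 to 638 TPM after PBS and 431 to 525 TPM after DT. That of 12 choroid plexus markers was 483, 2269 and 160 TPM after PBS and 3822, 2672 and 1428 TPM after DT. The part of oligodendrocyte or choroid plexus RNA in the difference of *Trf* was not tested. *Tfrc*, the receptor, read 166, 165 and 178 TPM after PBS and 162, 154 and 162 TPM after DT. The groups were separate in TPM but overlapped in CPM, and the log2 fold change was -0.10 (SE 0.06, 95% interval -0.24 to 0.04, adjusted p = 0.629 from limma).

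*Slc40a1*, which encodes ferroportin, the iron exporter, had the smallest p of the 10. It read 17.9, 22.02 and 24.6 TPM after PBS and 15.0, 15.9 and 15.7 TPM after DT. The DT libraries lay close together and below every PBS library, whereas the PBS libraries were spread. The log2 fold change was -0.47 (SE 0.12, 95% interval -0.74 to -0.20, adjusted p = 0.189 from limma), a ratio of 0.723. DESeq2 gave an adjusted p of 0.0360 for it, the lowest of 16 alternative settings, of which the highest was 0.439. The summed level of 11 microglia markers was 221, 260 and 245 TPM after PBS and 147, 133 and 136 TPM after DT, and 7 of the 11 passed the threshold as lower. That of 10 endothelial markers was 836, 962 and 1362 TPM after PBS and 724, 735 and 888 TPM after DT, with overlapping groups and 0 of the 10 past limma's threshold. The oligodendrocyte sums given above were also lower after DT, without overlap and with 0 of the 12 past the threshold. None of these markers was at 0 in all libraries, and their part in the difference was not tested. Macrophages also use ferroportin. The summed level of 10 border macrophage markers was 21.1 to 37.1 TPM after PBS and 69.2 to 90.7 TPM after DT. The part of these cells was not tested.

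**Figure D3:**
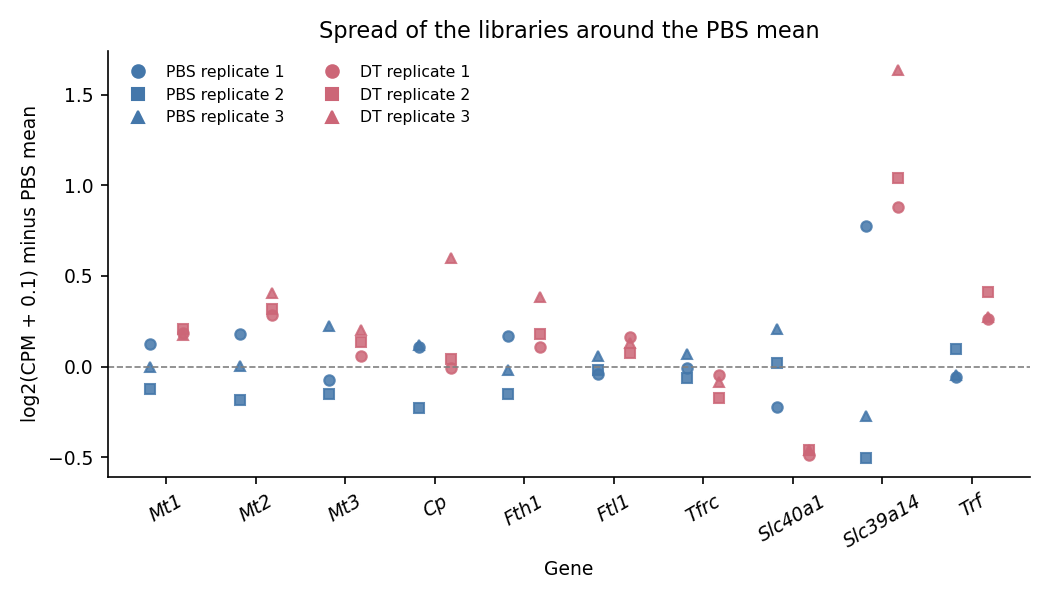
Log2(CPM + 0.1) of each gene in each library minus the mean of the 3 PBS libraries, with symbols for replicates. PBS replicate 1 stands apart for *Slc39a14* and DT replicate 3 for *Cp*, and the 3 DT libraries of *Slc40a1* lie together below the PBS libraries.

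*Cp*, which encodes ceruloplasmin, the copper-bound ferroxidase that works with ferroportin, read 57.3, 47.7 and 62.4 TPM after PBS and 54.1, 57.1 and 84.99 TPM after DT. DT replicate 3 stood above all others and the remaining libraries overlapped. The log2 fold change was 0.21 (SE 0.16, 95% interval -0.16 to 0.59, adjusted p = 0.705 from limma), and it was 0.017 without DT replicate 3. In TPM, *Mt2*, *Fth1*, *Ftl1* and *Slc39a14* were also highest in that library. The summed level of 10 ependymal markers was 857, 876 and 1423 TPM in the DT libraries and 636 to 788 TPM after PBS, with its highest value in the same library, and its part in these values was not tested. The proportion of *Tfrc* to *Slc40a1*, the receptor against the exporter, was 9.25, 7.48 and 7.23 after PBS and 10.8, 9.67 and 10.3 after DT. The groups did not overlap, and the log2 difference of 0.37 had an exact permutation p of 0.1 (0.25 adjusted over 5 ratios).

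Other genes of metal handling were read from 3 lists that leave out the 10 genes. These lists too were chosen with earlier results of these data known. In the iron list of 30 genes, 26 were tested and 0 passed limma's threshold in either direction, while 4 had an unadjusted p under 0.05, all with higher values, against 10.4% of all genes tested in either direction. edgeR and DESeq2 also called 0 of them. The median log2 fold change was 0.0088. The most abundant were the iron-sulfur scaffold *Iscu* (180 TPM after PBS and 176 TPM after DT), the iron regulatory protein *Aco1* (58.8 and 55.9 TPM) and *Fbxl5*, the iron-sensing ubiquitin ligase subunit (54.4 and 51.3 TPM). The 4 with an unadjusted p under 0.05, named after their values were seen, were *Steap4*, *Steap1*, *Steap3* and *Cybrd1*. *Steap4* and *Steap1* had log2 fold changes of 1.21 and 1.27 on 15 to 63 and 10 to 50 reads per library (adjusted p = 0.174 and 0.240 from limma). *Steap3* and *Cybrd1* had 0.47 and 0.54 on 235 to 570 and 359 to 713 reads (adjusted p = 0.429 and 0.374 from limma). *Steap2* had -0.13 (adjusted p = 0.882 from limma). The transcripts of *Hamp*, *Ltf*, *Ftmt* and *Hfe2* had no read in any library.

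In the heme list of 22 genes, all tested, 1 rose and 0 fell in limma, edgeR and DESeq2 alike, with a median of -0.043. At an unadjusted p under 0.05, 2 had higher and 2 lower values, against 10.4% of all genes tested. The gene that rose was *Hmox1*, the enzyme that opens heme and frees its iron. It read 13.9, 9.06 and 11.8 TPM after PBS and 23.3, 27.1 and 23.9 TPM after DT. The groups were well apart, and the log2 fold change was 1.08 (SE 0.18, adjusted p = 0.0379 from limma), on 138 to 437 reads per library. The call was lost in 8 of 16 alternative settings, among them the fits without PBS replicate 2 or 3 and without each DT library (adjusted p = 0.0710, 0.102, 0.127, 0.206 and 0.107 from limma), and over all settings the adjusted p ran from 1.3e-05 to 0.206. Macrophages express *Hmox1* as well, and the border macrophage markers given above were higher after DT, with 3 of the 10 past the threshold; their part was not tested. The most abundant heme genes were the hemopexin receptor *Lrp1* (374 TPM after PBS and 400 TPM after DT), the heme transporter *Slc48a1* (115 and 113 TPM) and *Hmox2* (104 and 108 TPM).

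In the zinc and copper list of 33 genes, 29 were tested, 1 rose and 0 fell in limma, with a median of 0.035. At an unadjusted p under 0.05, 2 had higher and 1 lower values, against 10.4% of all genes tested, and edgeR called 0 lower and DESeq2 1 lower. The gene that rose was *Slc39a1*, which encodes the zinc importer ZIP1. It read 85.3, 82.1 and 90.9 TPM after PBS and 134, 126 and 124 TPM after DT. The groups were far apart against their spread, and the log2 fold change was 0.56 (SE 0.07, adjusted p = 0.0120 from limma). It lost the call in 4 of 16 settings, without the variance trend and without PBS replicate 2, DT replicate 1 or DT replicate 2 (adjusted p = 0.0508, 0.0510 and 0.0575 from limma), and over all settings the adjusted p ran from 8.2e-08 to 0.0970. *Slc39a12*, the zinc importer ZIP12, was among the most abundant genes of the list and read 507 ± 12.4 TPM after PBS and 425 ± 26.6 TPM after DT (log2 fold change -0.27, adjusted p = 0.198 from limma). The superoxide dismutase *Sod1* read 605 and 671 TPM and the copper chaperone *Cox17* 206 and 202 TPM. *Mtf1*, the metal-sensing factor of the *Mt1* and *Mt2* promoters, was named after its values were seen. It read 12.8 ± 0.35 TPM after PBS and 14.3 ± 0.14 TPM after DT (log2 fold change 0.15, adjusted p = 0.514 from limma). *Mt4* and *Slc30a8* had no read in any library.

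**Figure D4:**
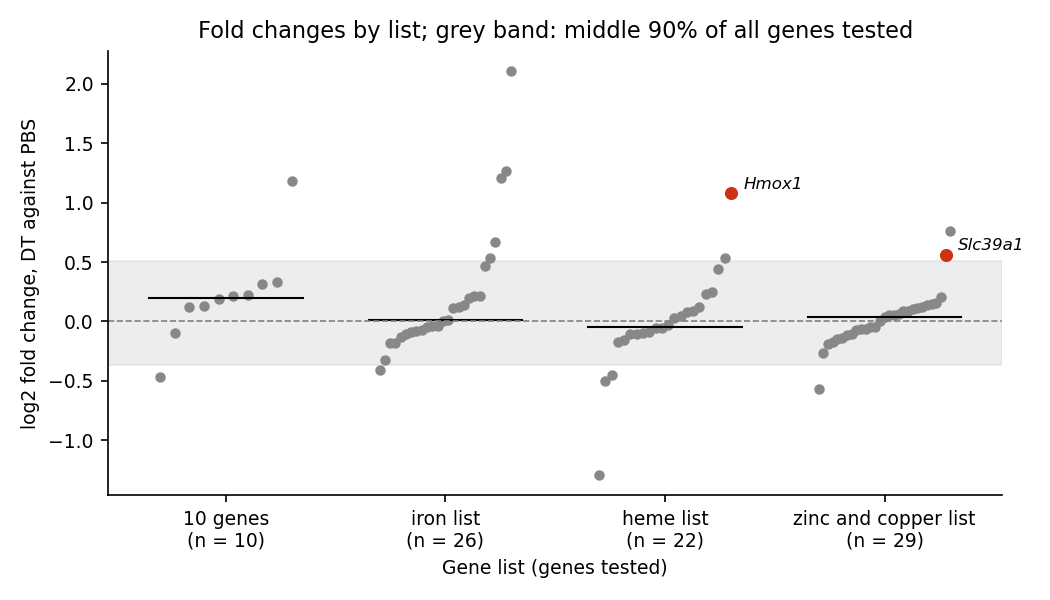
Log2 fold changes, DT against PBS, of the 10 genes and of the tested genes of the iron, heme, and zinc and copper lists, with black bars for medians and red points for genes past the threshold. *Hmox1* and *Slc39a1* are the red points, and the grey band from -0.37 to 0.51 holds the middle 90% of all genes tested.

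The libraries held 21704891 to 32933975 recovered reads, and 7 of the 10 genes had at least 1467 reads in every library. *Slc39a14* had 349 to 1384 reads, *Slc40a1* 403 to 829 and *Trf* 765 to 1497. *Siglech* had 21, 71 and 42 reads after PBS and 0 in every DT library, where 3 reads, the limit that a count of 0 allows, equal at most 0.131 CPM. *Gfap*, the filament gene of reactive astrocytes, was higher after DT (log2 fold change 1.93, adjusted p = 8.2e-05 from limma). The 12 astrocyte markers summed to 28287 to 29715 TPM after PBS and 31704 to 34114 TPM after DT and were the most abundant of the marker lists in every library. *Gfap* is one of the 12 and the only one past the threshold, at 1109 ± 131 TPM after PBS and 4238 ± 324 TPM after DT. The 7 erythroid markers, a source of heme and iron transcripts, summed to 36.6 to 613 TPM after PBS and 14.7 to 274 TPM after DT. Of 7 listed monocyte and neutrophil markers, *S100a8*, *S100a9*, *Plac8*, *Retnlg* and *Mpo* were at 0 in all libraries, and the sums were 3.44 to 7.04 TPM after PBS and 2.72 to 4.60 TPM after DT. The remaining sums overlapped between the groups for fibroblasts (89.7 to 130.0 TPM after PBS and 80.2 to 111 TPM after DT), neurons (443 to 588 and 365 to 710 TPM), pericytes (855 to 1291 and 1012 to 1389 TPM) and oligodendrocyte precursors (171 to 227 and 134 to 174 TPM).

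**Figure D5:**
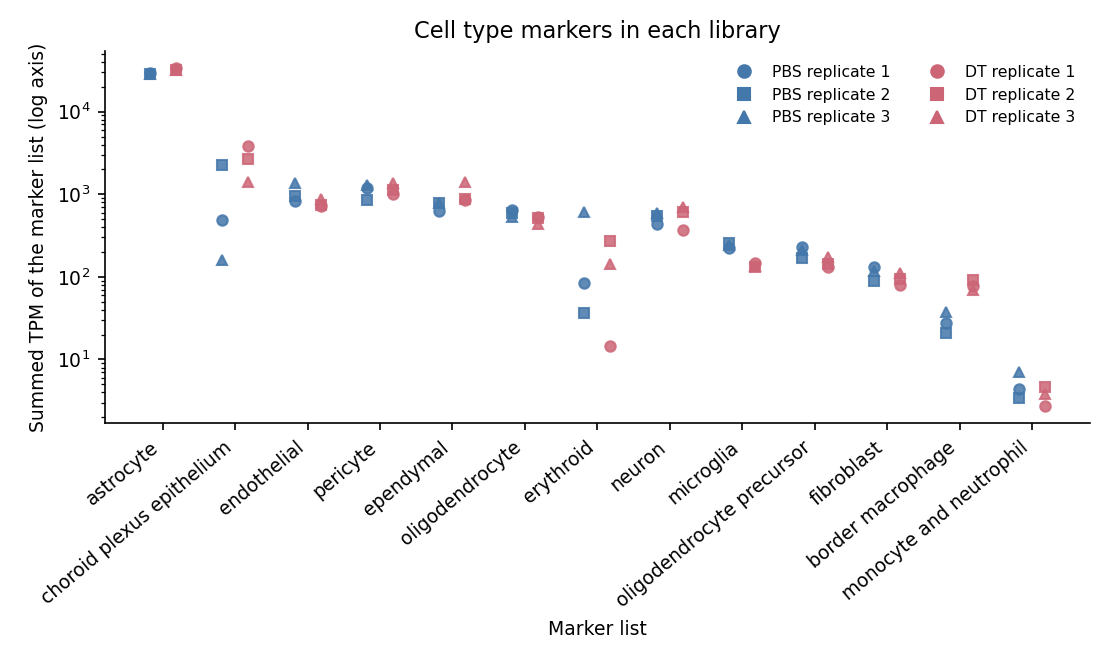
Summed TPM (log axis) of each cell type marker list in the 3 PBS and 3 DT libraries, with symbols for replicates. Astrocyte markers are highest throughout, microglia and endothelial sums are mostly lower and border macrophage sums higher after DT.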

How the data were processed

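RNA-seq reads of 6 libraries, 3 PBS and 3 DT, were processed by the authors with Trim Galore 0.5.0, FastQC 0.11.8, HISAT2 2.1.0, StringTie 1.3.5, bedtools 2.25.0, edgeR 3.24.3 and R 3.5.1 on mm10, per the submitters' processing notes. The authors deposited CPM, a signal scaled by library factors of 0.974 to 1.02 rather than by read totals alone, and TPM, scaled for transcript length. The scaled CPM was taken as CPM in the tests. Whole reads (tolerance 0.1) were recovered for 100.0% of values, 21704891 to 32933975 per library, so that 3 reads equal 0.0904 to 0.138 CPM; such limits cover counting error only. Deposited columns of the authors' own p-values, q-values and fold changes were not used. The table holds 2 duplicated names and 27 names turned into dates.

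Genes with a mean of at least 0.5 CPM (15137) were tested with limma 3.58.1 (R 4.3.3) on log2(CPM + 0.1) with a variance trend, DT against PBS, two-sided, with Benjamini-Hochberg adjustment over all genes tested and a threshold of 0.05. Fold changes are on that scale, which understates those of low genes. Ratios of TPM were compared by exact permutation over libraries. The fit was tested on simulated counts whose spread between replicates followed the trend over all genes. A draw with each gene's own spread was also made but was not part of that test. Alternatives were pseudocounts of 0.5 and 1, no filter, a mean of at least 2 CPM, TPM, quantile scaling, no variance trend, a replicate block, each library left out, and edgeR 4.0.16 and DESeq2 1.42.0 on recovered reads. Replicates of a group differed by more than counting error.

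The 10 genes and the lists were chosen with earlier results of these data known. The rule for named genes took the 10 genes, of each list the genes past the threshold and the 3 most abundant, and for each metallothionein the 3 most similar genes. *Hjv*, *Flvcr1* and *Flvcr2* were matched as *Hfe2*, *Mfsd7b* and *Mfsd7c*. Promoter windows came from RefSeq and transcripts from GENCODE M21. The values of single erythroid markers are not reported here.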

Additional observations from a re-analysis of the deposited data

How the results depend on the processing

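The 10 genes kept the sign of their log2 fold change under all 16 alternatives. DESeq2 on recovered reads moved *Slc40a1* past the threshold (-0.48), and leaving out PBS replicate 1 did so for *Slc39a14* (range 0.93 to 1.57 with each library left out). The counts of all genes higher and lower were 35 and 11 without a variance trend, 227 and 98 with DESeq2, and 39 to 72 and 9 to 20 with a library left out. The heme list had 0 genes higher without a filter, without the trend and with the replicate block, and 0 to 1 with a library left out. The zinc and copper list had 0 higher without the trend, 0 to 1 with a library left out, and 1 lower with DESeq2. Medians near 0 shifted. The iron median was -0.040 at a mean of at least 2 CPM, 0.055 with edgeR, 0.043 with DESeq2 and -0.013 to 0.078 with a library left out. The heme median was 0.0012 at 2 CPM and -0.043 to 0.0057, and the zinc and copper median was 0.0050 without a filter and 0.00063 to 0.051. The log2 ratio of *Mt1* to *Mt3* ran from -0.058, without PBS replicate 3, to 0.15. The causes were not tested.

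Pairing by replicate number was not shown: deviations of same-numbered libraries correlated at 0.115, 0.0105 and 0.118, and the labels do not say what the numbers mark. Fitted with a replicate block, the counts were 79 genes up and 30 down, *Slc40a1* was -0.47 (adjusted p = 0.136, limma), *Slc39a14* 1.19 (adjusted p = 0.179) and *Hmox1* 1.08 (adjusted p = 0.0625). Replicates 1 and 3 correlated best with their own number and replicate 2 did not. With 3 libraries a group, a ratio could not reach 0.05, and *Steap1*, *Steap4* and *Hmox1* rest on few reads.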
